A study of Mus musculus with 48 samples.

Results

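RNA from 6 B16-D5 melanomas, harvested from wild-type (WT) mice 6 hours after an injection, was compared here across all genes. 3 tumors came from mice given anti-PD-1 antibody and 3 from mice given IgG, the antibody control. These 6 tumors were taken, by the treatment and day written in their titles, from 48 in the series. B16-D5 is a poorly immunogenic subclone of a mouse melanoma line, and the cells were placed under the skin of the flank of C57BL/6J mice on day -8. The mice had arrived at 4 weeks of age and were housed for 2 weeks. Each treated mouse received 250 µg of antibody in 200 µL of PBS on day 0, the day of this harvest, and all 6 carried the unmodified genotype. 3 tumors of untreated WT mice from the same 6 h harvest are given beside them as a background. The source of the tumors was labelled fresh tumor tissue, so each library mixes melanoma cells with whatever stroma, skin, muscle and immune cells were dissected with them, and fewer cells of a type and less RNA per cell cannot be told apart. The series' separate treatment entry matched the title in 0 of these 6 tumors. It read Ctrl in 4 of them and aPD1 in 2 titled IgG, while the time entry read 6hrs and the genotype entry WT in all 6. Among the untreated tumors, the time entry of replicate 1 read 0hrs, and that of the others 6hrs. The groups below are those of the titles, and every direction rests on them.

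PD-1, the product of Pdcd1, is an inhibitory receptor of activated T cells, and its ligand PD-L1, the product of Cd274, is induced by interferon on tumor and myeloid cells. An antibody against PD-1 releases T cells from that inhibition. Released T cells secrete interferon gamma, which acts through the receptor-bound kinases JAK1 and JAK2 on genes with a short palindrome known as the gamma-activated site. The transcription factor IRF1 is among the first targets, and the response leads to antigen presentation genes, antiviral GTPases and T cell attracting chemokines. Type I interferons act on another short element. The comparison at 6 hours addressed whether such a response could be seen early in WT tumors.

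All values are counts scaled to library size with TMM (CPM), and in each sentence they follow the order replicates 1, 3 and 5 for anti-PD-1, replicates 1, 2 and 6 for IgG, and replicates 1, 2 and 4 for the untreated tumors. Fold changes are log2 values of anti-PD-1 over IgG from edgeR's quasi-likelihood fit, with the standard error (SE), and groups are said not to overlap when every tumor of one group was above every tumor of the other. The 6 libraries held between 25574203 and 40638277 counts. IgG replicate 6 stood apart from the other 5. It had the lowest total, the lowest median Spearman correlation with the others across genes (0.903 against 0.925 to 0.93), and was the highest of the 6 libraries in 8294 of the 26848 genes tested. Its histone genes summed to 1374 CPM of its raw total, where the other 5 libraries held 3773 to 5267, and its lincRNAs took 2.31% of counts against 5.87% to 8.46%. Main values that rest on this library are therefore given with and without it.

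At 6 hours no single gene passed an adjusted p of 0.05 in the comparison with IgG. edgeR's quasi-likelihood test, fitted on the 30 libraries of the first experiment, called 0 of 26848 genes (0.0%), and the smallest adjusted p was 0.967. At an unadjusted p under 0.05, 209 genes (0.778%) were higher after anti-PD-1 and 966 (3.6%) were lower. In counts simulated with no change, 1334 of 24720 genes had an unadjusted edgeR p under 0.05. The 209 and 966 genes therefore describe the low end of the p-values and are not a list of differences. Every tumor of one group lay above every tumor of the other in 572 genes that were higher after anti-PD-1 (2.13%) and in 1495 that were lower (5.57%). DESeq2's Wald test called 1 of 49215 genes (0.00203%), Slc38a5, an amino acid transporter. That gene had 19 counts in IgG replicate 1 and 0 counts in the other 5 tumors and in the 3 untreated ones, so 1 library decided the call, and the edgeR adjusted p was 0.967.

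The genes at the low end of the p-values were unevenly spread over abundance. Among the 966 lower genes, 781 (80.8%) averaged under 1 CPM, compared with 44.1% of all genes tested, and their median was 0.177 CPM against 1.85 CPM over all genes. Among the 209 higher genes, 86 (41.1%) averaged under 1 CPM. IgG replicate 6 was the highest IgG tumor in 628 of the 966 lower genes, and with that library left out 448 of them were still lower at an unadjusted p under 0.05. Of the 209 higher genes, 50 were still higher without it. The lower genes depended on other libraries as well. In fits over all genes they numbered 369 without anti-PD-1 replicate 1 and 528 without anti-PD-1 replicate 3, against 619 without IgG replicate 6. Leaving out any other tumor gave 751 to 986. The SE, which holds both counting error and the spread between tumors, was larger at low levels. The median SE of the log2 fold change was 2.04 for the 11836 genes under 1 CPM, 0.537 for the 5655 genes from 1 to 10 CPM, 0.220 for the 7317 genes from 10 to 100 CPM and 0.195 for the 2040 genes above that. Of those 2040 most abundant genes, 12 differed by more than 2-fold on the fitted scale. In the plot of all genes, the lower genes lie mostly at the left, where each gene has few counts.

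**Figure D1:**
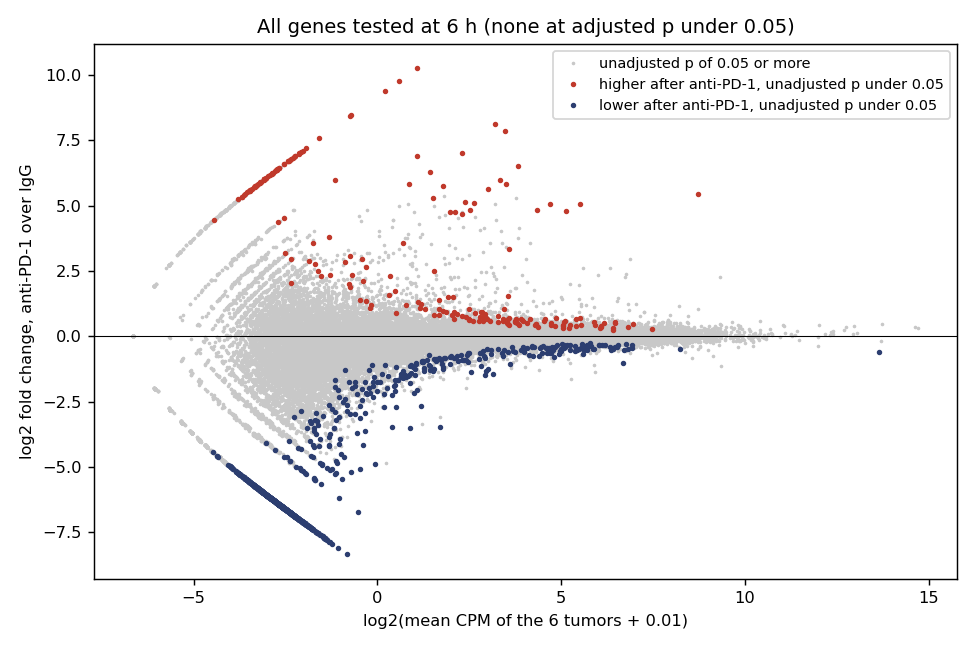
Log2 fold change of anti-PD-1 over IgG at 6 h (vertical axis) against the log2 mean CPM of the 6 tumors with 0.01 added (horizontal axis), 1 point for each of the 26848 genes tested. Red and blue points are the 209 higher and 966 lower genes at an unadjusted p under 0.05, and the streaks at the left are genes with counts in only 1 group.

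Interferon-induced genes were higher on average after anti-PD-1, but 1 IgG tumor was as high as the treated ones and 1 anti-PD-1 tumor was low. The interferon-inducible GTPases show it most plainly. These are the guanylate-binding proteins and the immunity-related GTPases, which coat and break the vacuoles of intracellular pathogens, and all 20 listed genes were tested. 20 of 20 had a fold change above 0, with a median of 1.09, where 42.9% of all genes tested were above 0 and the median was -0.07. None of the 20 had an unadjusted p under 0.05, and in none did the groups separate, where 2.13% of all genes were higher with no overlap. The level of the list, taken as the mean log2(CPM + 0.5) of its genes, was 5.32, 2.98 and 6.69 with anti-PD-1 and 5.88, 2.60 and 3.11 with IgG. Anti-PD-1 replicates 1 and 5 and IgG replicate 1 were high, and anti-PD-1 replicate 3 lay with IgG replicates 2 and 6. In the untreated tumors the level was 3.64, 2.35 and 2.46.

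Iigp1, an immunity-related GTPase, was at 316, 40.1 and 873 CPM after anti-PD-1 and 445, 25.2 and 74.6 CPM after IgG. Its log2 fold change was 1.17 ± 1.08 with a 95% interval from -1.09 to 3.44, and the groups overlapped across nearly their whole range. Irgm1, which regulates the other members of the family, was at 237, 74.02 and 407 CPM after anti-PD-1 and 279, 49.8 and 78.5 CPM after IgG, a log2 fold change of 0.82 ± 0.689. The GTPase median depended on single tumors. Without anti-PD-1 replicate 5 it was 0.01, without IgG replicate 1 it was 2.98, and without IgG replicate 6 it was 0.65 with 19 of 20 genes above 0.

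Irf1, the gene of a transcription factor upstream of many of these genes, divided the tumors the same way. Irf1 (chr11:53770014-53778374 in mm10) was at 114, 37.2 and 246 CPM after anti-PD-1 and 116, 25.3 and 15.7 CPM after IgG. Only IgG replicate 1 of the control tumors reached the level of anti-PD-1 replicate 1, and the untreated tumors were at 41.2, 23.1 and 19.7 CPM. Irf1 thus had a log2 fold change of 1.33 ± 0.8, the 95% interval ran from -0.34 to 3.00, and the unadjusted p was 0.108 in edgeR. Leaving out 1 tumor at a time moved it between 0.56 and 2.76. Irf3, which carries signals from nucleic acid sensors and is not itself strongly interferon-induced, stayed within 19.9 to 34.3 CPM in all 6. Irf7, the amplifier of type I interferon production, was at 46.8, 25.3 and 86.1 CPM after anti-PD-1 and 52.7, 27.2 and 44.02 CPM after IgG, with a log2 fold change of 0.35 ± 0.61 and full overlap. Over the 22 interferon receptor and signaling genes, 17 were above 0 with a median of 0.23 and none had an unadjusted p under 0.05. The median was 0.06 without anti-PD-1 replicate 5 and 0.43 without IgG replicate 1. Among its most abundant members, Stat3 had a log2 fold change of 0.15 ± 0.256 and Jak1, the kinase shared by both interferon types, -0.25 ± 0.173.

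The ligands themselves were scarce. Ifng, made by T and NK cells, was at 1.58, 0 and 3.72 CPM after anti-PD-1 and 0.672, 0.0576 and 0 CPM after IgG, and its highest values fell in the 3 tumors with high GTPase levels. Its log2 fold change of 2.84 ± 2.10 had an unadjusted edgeR p of 0.189. In the untreated tumors Ifng was at 0.0941, 0 and 0 CPM. Ifnb1, the first type I interferon made by most infected cells, had 0 counts in all 6 tumors and in the untreated ones, which in the shallowest of these libraries allows up to 0.105 CPM at 3 counts. Of the 20 interferon ligand genes listed, 3 passed the filter on low counts and 9 had no counts in the 6 tumors.

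The start-site sequences of 4 interferon-responsive genes show the elements these pathways use. They are the 110 bases before the annotated start from RefSeq's windows on GRCm38.p6, written 5′ to 3′ on the strand of the gene, with capitals marking TTCNNNGAA (the core of the gamma-activated site, the same on both strands) and the core of the interferon-stimulated response element (GAAA, any 2 bases, then GAAA, searched on both strands).

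Irf1: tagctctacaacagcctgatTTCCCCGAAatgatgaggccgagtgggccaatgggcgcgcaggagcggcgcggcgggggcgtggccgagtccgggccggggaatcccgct
Igtp: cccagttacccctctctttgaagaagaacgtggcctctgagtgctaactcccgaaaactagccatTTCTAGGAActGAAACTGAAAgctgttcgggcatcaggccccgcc
Irgm2: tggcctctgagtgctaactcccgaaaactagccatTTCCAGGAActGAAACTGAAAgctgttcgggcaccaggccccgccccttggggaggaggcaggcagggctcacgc
Tgtp2: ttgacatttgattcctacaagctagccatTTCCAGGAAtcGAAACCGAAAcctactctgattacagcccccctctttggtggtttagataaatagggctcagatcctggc

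The windows lie at chr11:53769904-53770013, plus strand, for Irf1, chr11:58199446-58199555, plus strand, for Igtp, chr11:58214867-58214976, plus strand, for Irgm2 and chr11:49064213-49064322, minus strand, for Tgtp2. Irf1 held TTCNNNGAA only, beginning 90 bases before the start. The 3 GTPase genes held both motifs 2 bases apart, in that order. Of the 12 GTPase genes of the list with a window from 250 bases before to 50 after the start, 7 held TTCNNNGAA and 11 the response element core. Over all 27025 genes with a window, 9.55% held the first and 3.99% the second. A match is a description of the letters and no measure of binding in these tumors.

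MHC class I genes followed the same division with smaller sizes. The MHC class I and peptide loading list had 20 of 20 genes above 0 and a median of 0.31, with none at an unadjusted p under 0.05, and its level was 6.16, 5.34 and 6.81 with anti-PD-1 and 6.65, 5.32 and 5.01 with IgG. Without anti-PD-1 replicate 5 the median was -0.01, and without IgG replicate 6 it was 0.08 with 15 of 20 genes above 0. B2m, the light chain of every class I molecule, was at 6219.7, 3868 and 7263 CPM after anti-PD-1 and 7179, 3218 and 4588 CPM after IgG, a log2 fold change of 0.21 ± 0.342. H2-D1, a class I heavy chain, was at 375, 270.2 and 583 CPM after anti-PD-1 and 519, 329 and 174 CPM after IgG, a log2 fold change of 0.26 ± 0.383. H2-D1 has close relatives among the class I genes, and reads may be divided between them. For the 10 MHC class II genes, 6 were above 0 and the median was 0.04. Their level did not follow that division, with 4.35, 4.12 and 5.28 with anti-PD-1 and 4.89, 4.54 and 4.07 with IgG, where IgG replicate 2 lay above anti-PD-1 replicate 1.

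The CXCR3 axis holds 3 chemokines that draw activated T cells and their receptor. Its 4 genes were all above 0 with a median of 1.01, and the list level was 5.08, 3.29 and 5.67 with anti-PD-1 and 4.87, 2.79 and 3.11 with IgG. The median was 0.51 without anti-PD-1 replicate 5 and 1.76 without IgG replicate 1. Cxcl9 was at 129, 17.97 and 267 CPM after anti-PD-1 and 135, 3.78 and 8.74 CPM after IgG. The highest and lowest tumors differed by more than 10-fold within each group. The log2 fold change was 1.48 ± 1.18 (edgeR unadjusted p = 0.222), and it ranged from 0.60 to 4.56 when single tumors were left out. Cxcl10 was at 565, 149.7 and 994 CPM after anti-PD-1 and 494, 141 and 186 CPM after IgG, a log2 fold change of 1.06 ± 0.722. Among the 40 type I interferon effector genes, which block viral replication or degrade viral RNA, 37 were above 0 and the median was 0.29. Their level was 5.55, 4.94 and 6.39 with anti-PD-1 and 5.87, 4.67 and 5.50 with IgG, and the median without anti-PD-1 replicate 5 was -0.12. Bst2, which tethers budding virions, had a log2 fold change of 0.28 ± 0.245, and Oasl2, an oligoadenylate synthetase-like protein, 0.30 ± 0.5.

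The plot of list levels shows the same 3 tumors at the top of each interferon list, though only just for the type I interferon effectors. In that list anti-PD-1 replicate 1 was at 5.55 and IgG replicate 6 at 5.50. The plot also shows skeletal muscle and keratinocyte genes, whose high tumors among the 6 were again anti-PD-1 replicates 1 and 5 and IgG replicate 1.

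**Figure D2:**
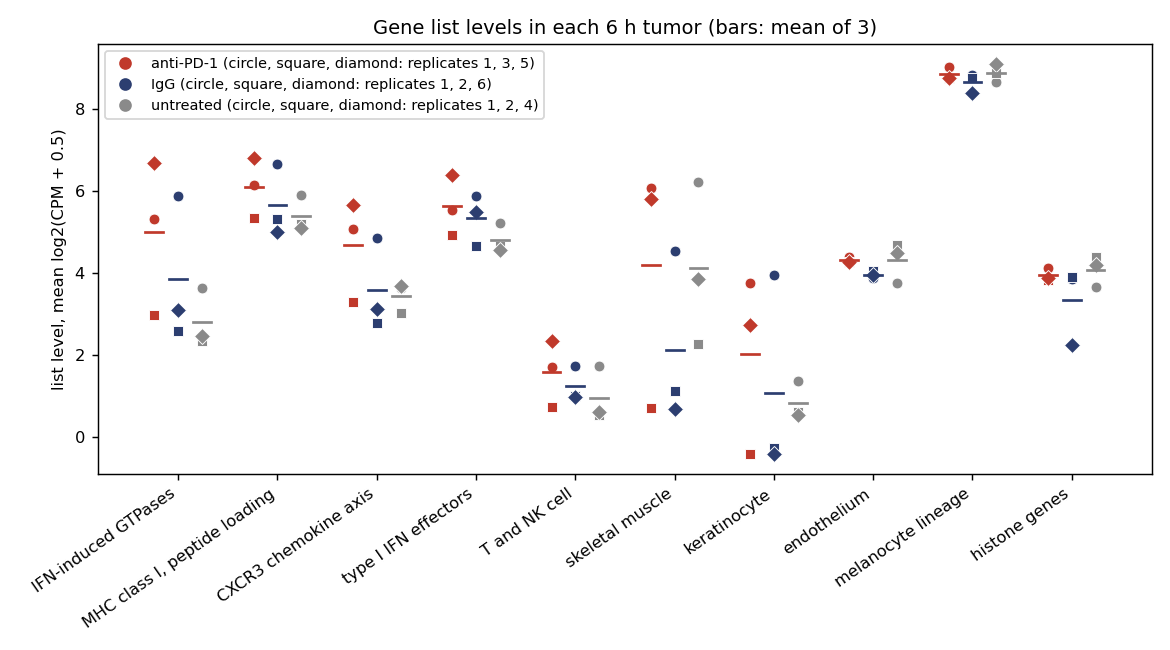
Level of 10 gene lists, as the mean log2(CPM + 0.5) over the genes of a list (vertical axis), in each of the 9 tumors at 6 h, with bars at the mean of 3. The GTPase level spans 2.98 to 6.69 in anti-PD-1 (red) and 2.60 to 5.88 in IgG (blue), while the endothelial level of the 3 anti-PD-1 tumors, 4.26 to 4.40, lies above the IgG tumors, 3.89 to 4.05.

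Checkpoint genes had a median near that of all genes, with 7 of 11 tested genes above 0 and a median of 0.08. Cd274 was at 45.6, 17.7 and 130.01 CPM after anti-PD-1 and 55.97, 11.96 and 18.1 CPM after IgG. Its levels followed the interferon lists, with the 3 high tumors between 45.6 and 130.01 CPM and the other 3 under 20 CPM. The log2 fold change was 1.17 ± 0.762 (edgeR unadjusted p = 0.138), and it was 0.18 without anti-PD-1 replicate 5. Pdcd1, the target of the antibody, was at 0.434, 0.753 and 0.915 CPM after anti-PD-1 and 0.581, 1.12 and 0.105 CPM after IgG, a log2 fold change of 0.21 ± 1.07. Tnfrsf9, a costimulatory receptor, had the opposite order, with 12.3, 44.7 and 37.2 CPM after anti-PD-1 and 13.7, 56.3 and 43.5 CPM after IgG. Its 2 lowest tumors were replicate 1 of each group, and the log2 fold change was -0.27 ± 0.8.

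Genes of T and NK cells had a median above 0, again with overlapping groups. Of the 24 tested, 21 were above 0 with a median of 0.53, and 1 had an unadjusted p under 0.05. The list level was 1.70, 0.73 and 2.35 with anti-PD-1 and 1.73, 0.997 and 0.97 with IgG. Without anti-PD-1 replicate 5 the median was -0.05, and without IgG replicate 1 it was 1.14. Cd8a, a chain of the coreceptor of cytotoxic T cells, was at 0.92, 0.439 and 3.66 CPM after anti-PD-1 and 2.11, 0.778 and 0.702 CPM after IgG, a log2 fold change of 0.48 ± 1.20. The most abundant members were Ccl5, a T cell chemokine, with a log2 fold change of 0.29 ± 0.696, and Il2rb, a chain of the interleukin 2 and 15 receptors, with 0.27 ± 0.631. The member with the low p was Foxp3, the transcription factor of regulatory T cells, picked out after its values were seen. Foxp3 was at 4.70, 1.22 and 8.86 CPM after anti-PD-1 and 1.71, 0.749 and 0.14 CPM after IgG. IgG replicate 1 lay above anti-PD-1 replicate 3, so the groups overlapped, and the log2 fold change was 2.50 ± 1.09 (edgeR unadjusted p = 0.0303, adjusted p = 0.967). 2 other genes that regulatory T cells express were also looked at afterwards. Ctla4 had a log2 fold change of 2.44 ± 1.71 and Icos 1.29 ± 0.958, and neither had an unadjusted edgeR p under 0.05. Ctla4 had 59, 0 and 69 counts after anti-PD-1 and 15, 6 and 0 counts after IgG. Both come from the checkpoint list, where 4 of 11 genes were below 0, among them Tigit with -0.81 ± 1.63 and Tnfrsf9 with -0.27 ± 0.8.

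Myeloid and B cell lists had medians nearer to that of all genes. It was 0.12 for 15 macrophage genes, -0.41 for 10 dendritic cell genes, -0.31 for 16 neutrophil and CXCR2 ligand genes, -0.02 for 10 B cell genes and 0.16 for the 5 Fc gamma receptors, which bind the constant part of IgG. Cxcl5, a neutrophil chemokine acting on CXCR2, separated the groups, with 0, 0 and 0.0286 CPM after anti-PD-1 and 0.367, 0.461 and 3.23 CPM after IgG. These are 0, 0 and 1 counts against 12, 16 and 92 counts, and the untreated tumors had 23, 14 and 15 counts. Relative to library totals, the summed count was 138-fold higher in IgG with an exact 95% interval for counting error from 24.3 to 5488, and the edgeR unadjusted p was 0.000889 with an adjusted p of 0.967. Without IgG replicate 6 the ratio, scaled the same way, of the remaining 28 counts to 1 was 44.4, with an interval from 7.34 to 1815. Nos2, which encodes the inducible nitric oxide synthase iNOS, was at 1.61, 1.47 and 3.77 CPM after anti-PD-1 and 2.23, 1.47 and 1.93 CPM after IgG, and anti-PD-1 replicate 5 was the highest. The log2 fold change of Nos2 was 0.28 ± 0.853 with a 95% interval from -1.49 to 2.06, and the untreated tumors were at 2.07, 1.98 and 1.24 CPM. Over the 12 nitric oxide and arginine genes, 9 were above 0 with a median of 0.24.

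Muscle and skin genes differed between tumors more than any immune list. The 18 skeletal muscle genes all had a fold change above 0, with a median of 2.35, none at an unadjusted p under 0.05, and a level of 6.08, 0.71 and 5.81 with anti-PD-1 and 4.53, 1.12 and 0.68 with IgG. Without IgG replicate 1 the median was 5.67. In the untreated tumors the level of the list was 6.22, 2.26 and 3.86. Summed over the list, muscle genes took 88.6 to 3396 CPM in anti-PD-1 and 75.4 to 1215 CPM in IgG, and none of the 18 was at 0 in all 6 tumors. Ttn, the giant spring protein of the sarcomere, was at 1652, 13.3 and 1552 CPM after anti-PD-1 and 619.9, 22.8 and 20.6 CPM after IgG, a log2 fold change of 2.28 ± 2.11. Myh4, a fast myosin heavy chain, was at 325, 0.753 and 203 CPM after anti-PD-1 and 105, 2.59 and 0.737 CPM after IgG, a log2 fold change of 2.29 ± 2.42. Keratinocyte genes had 16 of 16 above 0 and a median of 0.76, with a level of 3.76, -0.41 and 2.74 with anti-PD-1 and 3.94, -0.28 and -0.42 with IgG and summed values of 5.71 to 366 CPM in anti-PD-1 and 5.83 to 409 CPM in IgG. Their median was 0.07 without anti-PD-1 replicate 1 and 5.37 without IgG replicate 1. Dsp, a desmosome protein, was at 71.2, 0.941 and 172 CPM after anti-PD-1 and 109.7, 0.865 and 1.90 CPM after IgG. Krt10, a keratin of the upper epidermis, was at 90.6, 0.596 and 0.486 CPM after anti-PD-1 and 59.8, 0.749 and 0 CPM after IgG, high in replicate 1 of each group only.

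With the muscle list level as a covariate of the fit, the GTPase median was 0.74 and the MHC class I median 0.22. With the keratinocyte list level they were 1.17 and 0.27, and both covariates were chosen after the data were seen. Among the untreated tumors, replicate 1 was the highest in both, with a muscle level of 6.22 and a GTPase level of 3.64. The part of muscle and skin in the interferon values of the 6 tumors was not tested further.

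A separate set of skin genes was high in a single tumor. Tchh (chr3:93442330-93449077 in mm10), which encodes trichohyalin of the hair root sheath, was at 1.41, 0.533 and 2501 CPM after anti-PD-1 and 54.6, 1.35 and 1.40 CPM after IgG. Anti-PD-1 replicate 5 held almost all of it, and the other 2 anti-PD-1 tumors and IgG replicates 2 and 6 were all under 2 CPM. Together with the hair keratins and the keratin-associated proteins, a family of 81 genes by symbol that was picked out after these values were seen, it summed to 13.1, 10.98 and 4748 CPM after anti-PD-1 and 140.1, 12.9 and 19.4 CPM after IgG. Of the 57 tested, 54 were highest in anti-PD-1 replicate 5. The family made up 19 of the 30 genes above 1 CPM that were over 4-fold higher at an unadjusted p under 0.05, and 0 of its genes had such a p without anti-PD-1 replicate 5. Krt71 and Krt25, keratins of the inner root sheath, had log2 fold changes of 5.08 ± 2.22 and 5.08 ± 2.12, which became -4.77 and -4.50 without that tumor.

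Apart from lists, the genes that best separated the groups were of mixed function. Among the 15012 genes with a mean of 1 CPM or more, 370 (2.46%) were higher after anti-PD-1 with no overlap and 470 (3.13%) were lower. The 10 in each direction with the smallest unadjusted p and a symbol that is not a predicted gene are shown in the plot of leading genes, and their edgeR adjusted p-values were all 0.967 or above.

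**Figure D3:**
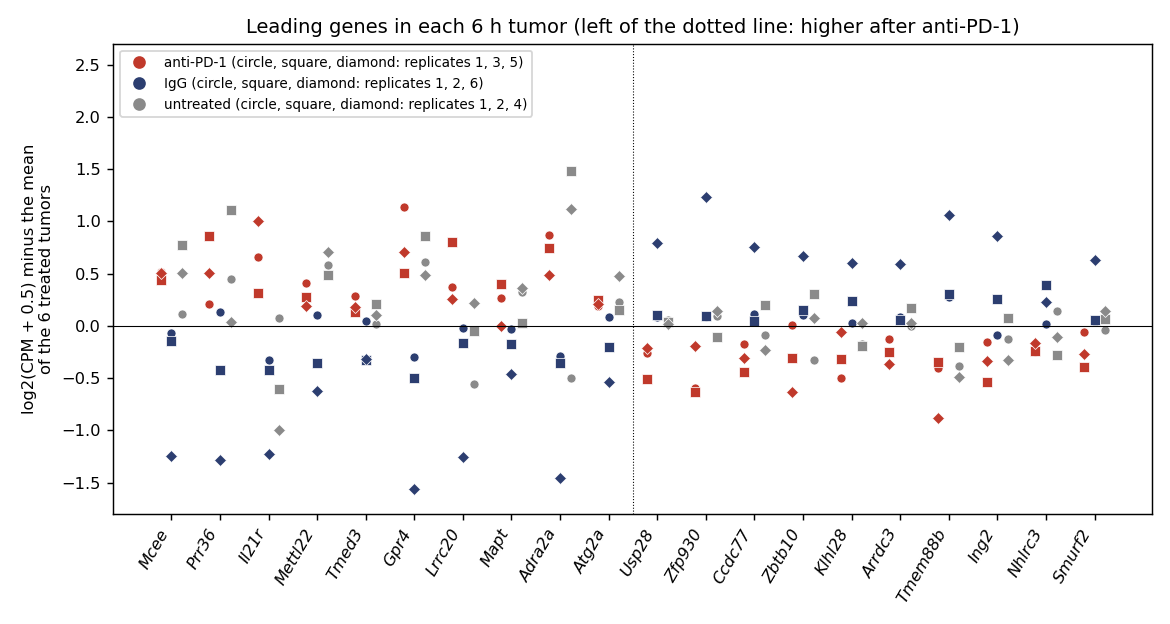
Log2(CPM + 0.5) minus the mean of the 6 treated tumors (vertical axis) for the 10 leading genes in each direction, with 1 point for each of the 9 tumors at 6 h. IgG replicate 6 (blue diamond) was the extreme IgG tumor in most genes, for example at 28.96 CPM of Usp28 where the other 2 IgG tumors were at 17.6 and 17.9.

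On the higher side, Mcee (chr7:64392607-64412125), a methylmalonyl-CoA epimerase, was at 9.53, 9.002 and 9.46 CPM after anti-PD-1 and 6.20, 5.85 and 2.46 CPM after IgG. Its log2 fold change was 0.95 ± 0.315 (edgeR unadjusted p = 0.00585), and the untreated tumors, at 7.12, 11.5 and 9.47 CPM, lay with the anti-PD-1 tumors or above them except for replicate 1. Il21r (chr7:125603429-125633570), the receptor of the T cell cytokine interleukin 21, was at 5.52, 4.23 and 7.15 CPM after anti-PD-1 and 2.54, 2.33 and 1.12 CPM after IgG. The 3 anti-PD-1 tumors were above all IgG tumors, and also above the 3 untreated tumors, at 3.51, 2.004 and 1.41 CPM. The log2 fold change of Il21r was 1.49 ± 0.535 (edgeR unadjusted p = 0.0098), and it ranged from 1.23 to 1.76 when single tumors were left out. Gpr4, a proton-sensing receptor of endothelial cells, was at 2.76, 1.60 and 1.91 CPM after anti-PD-1 and 0.703, 0.548 and 0 CPM after IgG, a log2 fold change of 2.31 ± 0.854. Adra2a, an adrenergic receptor, was at 6.95, 6.34 and 5.23 CPM after anti-PD-1 and 2.84, 2.68 and 0.983 CPM after IgG, with 2.38, 10.9 and 8.35 CPM in the untreated tumors and a log2 fold change of 1.51 ± 0.586. Smaller separations were those of Tmed3, in vesicle transport, with 0.40 ± 0.146, the autophagy lipid transfer gene Atg2a with 0.42 ± 0.165, Mettl22, a methyltransferase, with 0.59 ± 0.214, and Mapt, which encodes tau, with 0.45 ± 0.175. Without IgG replicate 1 they were larger, at 0.61 for Tmed3, 0.66 for Atg2a, 0.90 for Mettl22 and 0.63 for Mapt. Without IgG replicate 6 they were smaller, at 0.35 for Tmed3, 0.30 for Atg2a, 0.45 for Mettl22 and 0.36 for Mapt. Prr36 and Lrrc20 had log2 fold changes of 1.05 ± 0.361 and 0.94 ± 0.36. The other leading genes on this side were also smaller without IgG replicate 6. They were 0.75 for Prr36, 0.65 for Lrrc20, 0.65 for Mcee, 1.23 for Il21r, 1.75 for Gpr4 and 1.18 for Adra2a.

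On the lower side, Usp28 (chr9:48985375-49042517), a deubiquitinase known for stabilising MYC, was at 13.7, 11.5 and 14.2 CPM after anti-PD-1 and 17.6, 17.9 and 28.96 CPM after IgG. The untreated tumors, at 17.2, 17.004 and 16.7 CPM, lay with IgG replicates 1 and 2, and the log2 fold change was -0.71 ± 0.191 (edgeR unadjusted p = 0.00104). Without IgG replicate 6 it was -0.41. Zfp930 (chr8:69209038-69230536), a zinc finger gene, was at 4.01, 3.89 and 5.46 CPM after anti-PD-1 and 6.75, 6.80 and 15.6 CPM after IgG, with a log2 fold change of -1.12 ± 0.319 that became -0.58 without IgG replicate 6. Smurf2, a ubiquitin ligase that acts on the TGF-beta pathway, was at 55.3, 43.7 and 47.6 CPM after anti-PD-1 and 58.8, 59.6 and 89.2 CPM after IgG, a log2 fold change of -0.50 ± 0.18 that became -0.26 without that library. Arrdc3, an arrestin-domain protein, was at 38.9, 35.8 and 32.8 CPM after anti-PD-1 and 45.1, 44.2 and 64.3 CPM after IgG, a log2 fold change of -0.51 ± 0.168 that became -0.30. Nhlrc3 was the 1 leading gene on this side whose highest tumor was not IgG replicate 6, with 20.2, 20.4 and 21.5 CPM after anti-PD-1 and 24.4, 31.9 and 28.4 CPM after IgG and a log2 fold change of -0.45 ± 0.15 that was -0.27 without IgG replicate 2. The rest were Ccdc77 with -0.66 ± 0.201, the zinc finger gene Zbtb10 with -0.63 ± 0.195, Klhl28 with -0.60 ± 0.195, Tmem88b with -1.35 ± 0.443 and the chromatin reader Ing2 with -0.76 ± 0.255. Without IgG replicate 6 these were -0.37 for Ccdc77, -0.40 for Zbtb10, -0.40 for Klhl28, -0.98 for Tmem88b and -0.43 for Ing2. An abundant gene of this kind was Actb, beta-actin, singled out after its values were seen, at 10104, 10549.8 and 9818 CPM after anti-PD-1 and 9499.9, 10648 and 26106 CPM after IgG. Its log2 fold change was -0.60 ± 0.267 with IgG replicate 6 and 0.03 without it.

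Endothelial genes were higher after anti-PD-1 in some members with no overlap between groups. Of 14 genes, 11 were above 0, the median was 0.41, and in 5 of 14 every anti-PD-1 tumor was above every IgG tumor, beside 2.13% of all genes. The list level was 4.40, 4.26 and 4.27 with anti-PD-1 and 3.89, 4.05 and 3.95 with IgG, which did not overlap, and it was 3.75, 4.68 and 4.48 in the untreated tumors, on both sides of the treated ones. Cdh5, the cadherin of endothelial junctions, was at 133, 97.2 and 90.9 CPM after anti-PD-1 and 65.4, 67.3 and 52.02 CPM after IgG, and the untreated tumors were at 47.1, 143 and 127 CPM. Its log2 fold change was 0.80 ± 0.934 in the fit of 30 libraries (edgeR unadjusted p = 0.4). In the fit of the 6 tumors alone its SE was 0.196 and its unadjusted edgeR p 0.00332, with an adjusted p of 0.996. Most leading genes had larger unadjusted edgeR p-values in that fit than in the main one, such as 0.0212 for Usp28 and 0.0348 for Mcee. Il21r, at 0.0076, and Adra2a, at 0.0101, had smaller ones. Pecam1 and Tie1, an adhesion molecule and a receptor kinase of endothelial cells, were picked out after their values were seen. Pecam1 was at 61.9, 55.7 and 50.1 CPM after anti-PD-1 and 32.1, 38.7 and 42.2 CPM after IgG, a log2 fold change of 0.57 ± 0.626. Tie1 was at 13.8, 15.7 and 13.6 CPM after anti-PD-1 and 8.77, 9.22 and 7.48 CPM after IgG, a log2 fold change of 0.76 ± 0.868. Eng, the most abundant member, overlapped between groups, with 342, 256 and 338 CPM after anti-PD-1 and 351, 265 and 155 CPM after IgG and a log2 fold change of 0.28 ± 0.256, and Tek and Vwf had fold changes below 0. The median ranged from 0.41 to 0.59 when single tumors were left out. It was 0.72 with the sensory receptor sum as a covariate and turned to -0.07 with the replicate number as a block.

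The level of melanocyte genes overlapped between groups. The melanocyte lineage list had a level of 9.02, 8.77 and 8.75 with anti-PD-1 and 8.83, 8.77 and 8.41 with IgG, and 12 of 15 genes were above 0 with a median of 0.15. In 1 of the 15, Trpm1, a cation channel named here for its values, every anti-PD-1 tumor was above every IgG tumor, beside 2.13% of all genes. Gpnmb, a melanosome glycoprotein, had a log2 fold change of 0.07 ± 0.182, and Dct, a pigment enzyme, 0.17 ± 0.186, with lowest values among the 6 tumors of 4108 and 4391 CPM, so the labelled melanoma was borne out by its markers. Mitosis genes had a median of 0.00, immediate early genes 0.05, circadian clock genes -0.15, integrated stress response genes 0.20 and NRF2 response genes 0.10. The hypoxia and glycolysis list had 21 of 25 genes below 0 with a median of -0.37, its level was 6.43, 7.11 and 6.92 with anti-PD-1 and 6.77, 7.51 and 7.09 with IgG, and IgG replicate 2 was the highest. Without IgG replicate 2 the median was near 0, and it was -0.09 without anti-PD-1 replicate 1. Adipocyte genes had 11 of 13 below 0 and a median of -0.69, which was -0.08 without IgG replicate 6. It was -1.29 without anti-PD-1 replicate 1 and turned to 0.99 with the sensory receptor covariate. Fibroblast and collagen genes had a median of -0.11, cytokines and CC chemokines 0.10, and erythrocyte genes 0.08.

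Of the housekeeping lists, histone, respiratory chain and ribosomal protein genes moved with IgG replicate 6. Replication-dependent histone genes had 56 of 62 above 0 and a median of 0.45, which was 0.07 without that library. Their level was 4.12, 3.83 and 3.88 with anti-PD-1 and 3.86, 3.89 and 2.25 with IgG. Hist1h2bf, an H2B gene, did not overlap between groups, with 2.17, 0.847 and 0.943 CPM after anti-PD-1 and 0.183, 0.317 and 0 CPM after IgG and a log2 fold change of 2.94 ± 1.31 (edgeR unadjusted p = 0.0332). Nuclear respiratory chain genes had 65 of 75 above 0 and a median of 0.25, against 0.08 without IgG replicate 6. Ndufa11, a complex I subunit, was at 62.5, 46.5 and 44.8 CPM after anti-PD-1 and 43.1, 42.8 and 12.5 CPM after IgG, a log2 fold change of 0.64 ± 0.294 that became 0.27 without it. Cytosolic ribosomal protein genes had a median of 0.15, which was 0.00 without it, and the 13 protein-coding genes of mitochondrial DNA a median of 0.27 and 0.34 without it.

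**Figure D4:**
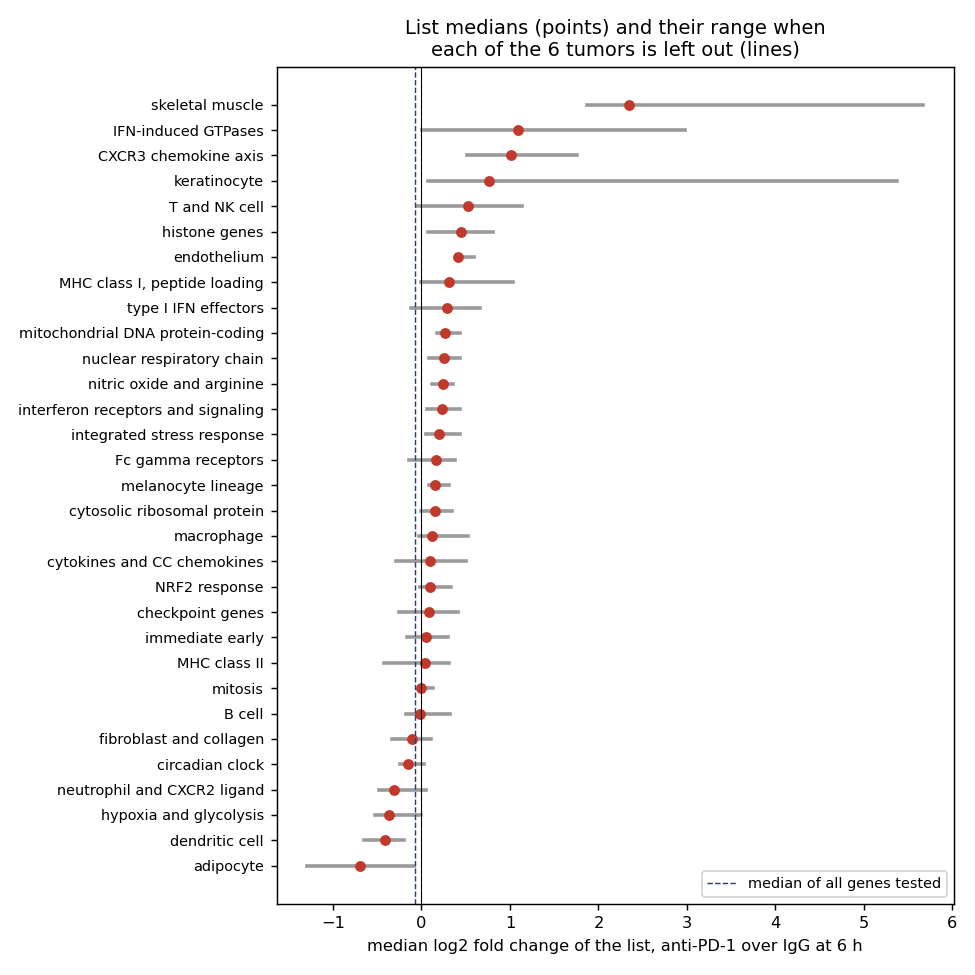
Median log2 fold change of anti-PD-1 over IgG at 6 h (horizontal axis) for 31 gene lists, as points, with lines over the range of the median when each of the 6 tumors was left out in turn. The GTPase line runs from 0.01 to 2.98 and the keratinocyte line from 0.07 to 5.37, whereas the endothelial line runs from 0.41 to 0.59, and the interferon ligand, erythrocyte and sensory receptor lists are not drawn.

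The list with the most members, that of sensory receptors, lay mostly below 0. These are the genes of the olfactory, vomeronasal and taste receptors. Of 1473 listed, 495 passed the filter, which a gene could do through its counts in a single group. At an unadjusted edgeR p under 0.05, 67 of these were lower and 1 was higher, beside 3.6% and 0.778% of all genes. Of the 11836 genes of any kind under 1 CPM, 781 were lower and 86 higher at that p. The median log2 fold change of the sensory receptors was -1.88. It was -1.30 without IgG replicate 6, -4.00 without anti-PD-1 replicate 3 and -3.64 without anti-PD-1 replicate 5. Summed over the family they made up 26.1, 105 and 83.5 CPM of the raw total after anti-PD-1 and 144, 123 and 248 CPM after IgG, which did not overlap. The mean was 71.7 ± 40.98 (SD, n = 3) after anti-PD-1 and 172 ± 66.9 (SD, n = 3) after IgG, with a two-sided exact permutation p of 0.1, the smallest that 3 against 3 can give, and 0.4 after adjustment over the 4 library properties tested. Total counts, ribosomal protein and histone shares had exact permutation p-values of 0.5, 0.6 and 0.5 in the same family. In the untreated tumors the sensory receptor sum was 16.1, 72.2 and 48.7. At the low end of detection, 249 of the 26848 genes tested had at least 3 counts in all 3 IgG tumors and 0 in all 3 anti-PD-1 tumors. The reverse held for 13 of them. Over all genes tested, 5.57% were lower and 2.13% higher after anti-PD-1 with no overlap. Genes with any count numbered 21927, 24557 and 26176 after anti-PD-1 and 31076, 27935 and 25397 after IgG. Among the 966 lower genes, 13.3% were lincRNAs and 11.6% antisense genes, compared with 7.02% and 5.43% of all genes tested. The cause was not tested.

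The contrast at 6 hours was set beside those of separate tumors at day 1 and day 3, each with 3 anti-PD-1 and 3 IgG tumors of WT mice from the same experiment. A test of the difference between the 6 h and the day 1 effect called 0 of 26848 genes (0.0%) in edgeR, with 499 genes higher and 657 lower at an unadjusted p under 0.05. The same test against day 3 called 0 of the 26848 genes (0.0%), with 261 higher and 555 lower at that p. The counts at an unadjusted p describe the low end of the p-values and are not lists of differences. On the list medians, the GTPases had 1.09 at 6 hours, -1.98 at day 1 and 1.04 at day 3. MHC class I had 0.31, -0.72 and 0.25, and the CXCR3 axis 1.01, -1.09 and 0.56. Muscle genes had 2.35, -2.57 and -2.24, and keratinocyte genes 0.76, -3.99 and -0.56. The sign of the interferon, muscle and keratinocyte medians thus differed between 6 hours and day 1. The difference between the 6 h and day 1 effects was also read for single genes. Its unadjusted edgeR p was 0.0125 for Irf1, 0.0131 for Cd274, 0.0484 for Cxcl9 and 0.00181 for Il21r, with an adjusted p of 0.9999 for each. The same edgeR p was 0.0434 for Nos2, 0.053 for Ifng, 0.172 for Cd8a, 0.267 for Pdcd1, 0.322 for Irf3 and 0.674 for Irf7. Il21r was picked by its 6 h p, which this difference uses again, so its low p is no separate evidence. Irf1 itself had a log2 fold change of -1.72 ± 0.809 at day 1 and 0.99 ± 0.794 at day 3.

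**Figure D5:**
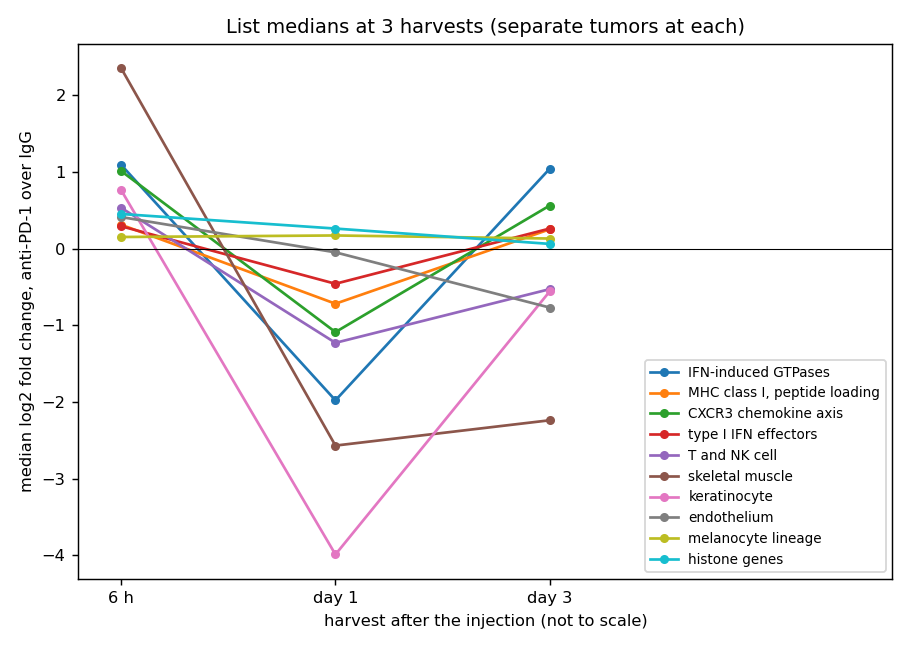
Median log2 fold change of anti-PD-1 over IgG (vertical axis) for 10 gene lists at 6 h, day 1 and day 3 (horizontal axis, not to scale), from separate tumors at each harvest. The GTPase median was 1.09 at 6 h, -1.98 at day 1 and 1.04 at day 3, and the melanocyte lineage median stayed between 0.13 and 0.17.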

How the data were processed

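The authors isolated total RNA, made strand-specific libraries from 100 ng with a kit for mouse RNA-seq, and deposited 1 table of raw counts per gene for 48 tumors. Per the labels and methods, adapters were detected and trimmed (cutadapt 1.8.1), and reads were aligned to mm10 with STAR 2.7.7a and quantified with RSEM 1.3.0. The deposited counts are whole numbers, no read or duplicate filter is given in the sources used here, and the name of the table points to another counting program, so the counter behind the counts is uncertain. The 55450 gene identifiers all matched GENCODE vM21, whose symbols and mm10 coordinates were used.

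edgeR 4.0.16 (R 4.3.3) fitted the counts of the 30 libraries of the first experiment, 1 coefficient for each of 10 groups, with TMM, filterByExpr at a minimum count of 10, 20 residual degrees of freedom and Benjamini-Hochberg adjustment at 0.05. The common biological coefficient of variation was 0.671, and 0.464 with the 6 libraries alone. Printed SEs are the fold change over the root of F, and fold changes are shrunk by edgeR's prior count. DESeq2 1.42.0 was an alternative. On simulated counts for this comparison with 200 genes changed 4-fold, over 24630 genes, 77 of the 110 changed genes at 1 CPM or more were called along with 2 unchanged ones, and with no change 0 of 24720 genes were called. These 77 were all the changed genes called, so none of the changed genes under 1 CPM was called. Exact intervals and floors of 3 counts cover counting error only. List levels used log2(CPM + 0.5). Nothing says that tumors of a group came from different cages or days. The main p-values therefore measure only the spread between tumors within the 10 groups of the 30 libraries fitted. The smallest chi-square per gene between replicates of a group was 44.0, so no 2 libraries agreed within sampling noise. The members and the 34 gene lists were chosen with earlier results of these data known.

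Genes were named by rule: those past an adjusted p of 0.05 in either tool, the 10 leading genes per direction at 1 CPM or more with no overlap, 10 genes of the PD-1 and interferon pathways (1 of them is not reported here), and for the immune, tissue and interferon lists described gene by gene the 2 most abundant members and any member with no overlap and an unadjusted p under 0.05. Genes named otherwise are said to be. Python 3.11.15 with scipy 1.17.1 computed the rest, and figures used matplotlib 3.10.9.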

Additional observations from a re-analysis of the deposited data

How the results depend on the processing

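The count of genes past an adjusted p of 0.05 was 0 under every alternative tried except DESeq2's Wald test, with 1 gene. With a single tumor left out it ranged from 0 to 0. The counts at an unadjusted p under 0.05 were less steady. The 209 higher genes became 533 with no filter on low counts, 80 in the fit of the 6 libraries alone, 413 with the sensory receptor sum as a covariate, 327 by DESeq2, and 110 to 1187 with single tumors left out. The 966 lower genes became 186 with the 6 libraries alone, 472 with the sensory receptor covariate, and 369 to 986 with single tumors left out. Tests of the 6 h against the day 1 effect called 2 genes with no filter. The replicate number from the titles as a replicate block gave 114 higher, 740 lower and 0 adjusted calls. The 2 groups share only number 1, so the numbers do not pair these tumors. With a pseudocount of 0.1 the difference of the list level was -0.31 for neutrophil and CXCR2 ligand genes and -0.68 for sensory receptors, and 32 of 34 list levels moved by less than the spread between tumors.

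With the replicate block, the sign of the log2 fold change turned to -0.19 for Irf7, -0.20 for Nos2, -0.65 for Pdcd1, -0.01 for Stat3, -0.01 for B2m, -0.07 for H2-D1, 0.10 for Tnfrsf9, -0.15 for Oasl2, -1.42 for Krt71 and -2.15 for Krt25. With the sensory receptor covariate, the sign of the log2 fold change turned to 0.06 for Tnfrsf9, -0.08 for Gpnmb, -0.26 for Myh4 and -1.04 for Krt10. With the muscle covariate, the sign of the log2 fold change turned to 0.47 for Tnfrsf9, -0.45 for Ttn, -0.74 for Myh4, -0.18 for Dsp and -0.78 for Krt10. This covariate is the level of the muscle list, which holds Ttn and Myh4. For these genes and for the median of that list, given below, the loss of the difference was therefore built in. With the keratinocyte covariate, the sign of the log2 fold change turned to 0.32 for Tnfrsf9. With single tumors left out, the sign turned in some fits and the range was -0.14 to 0.72 for Irf7, -0.23 to 0.55 for Nos2, -0.26 to 1.06 for Pdcd1, -0.77 to 1.25 for Cd8a, -0.03 to 0.33 for Stat3, -0.04 to 0.76 for H2-D1, -0.60 to 0.24 for Tnfrsf9, -0.31 to 0.67 for Oasl2, -0.76 to 1.28 for Ccl5, -0.18 to 0.73 for Il2rb, -0.06 to 0.22 for Gpnmb, -0.03 to 5.98 for Dsp, -5.18 to 6.31 for Krt10, -4.26 to 9.32 for Tchh, -4.77 to 9.46 for Krt71, -4.50 to 6.77 for Krt25 and -0.76 to 0.03 for Actb.

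The DESeq2 size factors moved the median fold change of all genes by 0.008. Over 14 alternatives, 43 of 63 named genes kept their sign throughout, and the cause of the other sign changes was not tested. The median SE was 2.04 in the 11836 genes under 1 CPM, where few counts and the spread between tumors were not separated. Among gene lists with a median of at least 0.1 in size, the interferon ligands aside, the sign of the median turned with the replicate block to -0.08 for type I interferon effectors, -0.24 for cytokines and CC chemokines, -0.05 for Fc gamma receptors and -0.07 for endothelium, with the sensory receptor covariate to -0.06 for melanocyte lineage, 0.18 for fibroblast and collagen, 0.99 for adipocyte and -0.01 for NRF2 response and with the muscle covariate to -0.01 for cytokines and CC chemokines, -0.18 for skeletal muscle and -0.88 for keratinocyte.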
